A study of Rattus norvegicus with 16 samples.

Results

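The genes described here encode Wnt ligands, their Frizzled receptors and the secreted antagonists that bind either the ligands or their co-receptors. They were chosen by symbol alone, as every row of the deposited table whose identifier begins with Wnt, Fzd, Sfrp, Dkk or Wif followed by a digit, which gave 36 of 17147 genes: 18 Wnt, 9 Fzd, 4 Sfrp, 4 Dkk and 1 Wif gene. Messenger RNA was sequenced from the supraspinatus, a muscle of the rotator cuff, of Sprague Dawley rats in 16 libraries, with 4 libraries in each of 4 groups. The first group came from unoperated rats (0 days). The other 3 groups were taken at 10, 30 and 60 days after an operation on both shoulders. In it the supraspinatus was torn through its full thickness and the suprascapular nerve was cut out. Tear and denervation cannot be told apart, and no sham-operated group is among the samples used here. The age and sex of the rats are not given in the labels, nor is it stated whether a rat gave more than 1 library, so p-values measure the spread between these libraries.

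Wnt proteins are lipid-modified signals that act over short distances. A Wnt that engages a Frizzled receptor together with the co-receptor Lrp5 or Lrp6 keeps beta-catenin from being destroyed, and beta-catenin then acts with Tcf and Lef factors on transcription, while other Wnts work with Ror2, Ryk or Musk on cell polarity, calcium and synapses. Secreted frizzled-related proteins (Sfrp) and Wif1 bind the ligands themselves, whereas Dickkopf proteins (Dkk) other than Dkk3 bind Lrp5 and Lrp6. In skeletal muscle the pathway is known for parts in the formation of the neuromuscular junction, in muscle regeneration and in the choice of progenitor cells between fat, fibrous tissue and muscle.

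Library totals ran from 17.2 to 39.9 M fragments (M, mega), and the 4 libraries at 60 days had the 4 lowest totals. Levels are given as CPM, the fragments of a gene per M fragments of its library after TMM scaling, and 3 fragments correspond to 0.0712 to 0.175 CPM. Fold changes are log2 values from edgeR's quasi-likelihood model of all 16 libraries with their standard error (SE, the value after ± beside a fold change), and a gene was called higher or lower at an adjusted p (Benjamini-Hochberg over the 11658 genes tested) under 0.05. They are relative to the bulk of the genes: with library totals alone the median of all genes lay higher by log2 0.66, 0.49 and 0.41 at 10, 30 and 60 days against 0 days, and with upper-quartile factors by 0.054, 0.12 and 0.14. The defining fibre genes were abundant, as the label of the tissue requires: 7 muscle fibre markers summed to 188443 to 205949 CPM in unoperated muscle, 63677 to 67956 after 10 days, 91552 to 129049 after 30 days and 105790.0 to 124393 after 60 days. Of these 7 markers, 6, 5 and 5 were called lower at 10, 30 and 60 days, and 1 was called higher at each time. All 5 markers of denervated fibres were called higher at each of the 3 times. Of 7 macrophage markers 6, 7 and 7 were called higher at 10, 30 and 60 days, and of 7 Schwann cell markers 1, 3 and 6 (2 were lower at 10 days). Of 5 tendon markers 5, 4 and 3 were higher at these times (1 was lower at 60 days), and of 5 satellite cell markers 1, 2 and 3 (1 was lower at each time). Of 6 smooth muscle and pericyte markers 0, 0 and 2 were higher (5, 4 and 2 were lower). This list includes Des, which is also among the 7 muscle fibre markers. The part of a changed cell make-up in the results below was not tested. In bulk muscle, fewer cells of a type and less RNA per cell cannot be told apart.

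Of the 36 genes, 23 had a mean of at least 10 fragments over the 16 libraries and are described: 8 ligands, 7 receptors and 8 antagonists. The member just above that threshold was Wnt6 with a mean of 11.4 fragments, and the one just below it was Wnt2b with 9. All 23 passed the filter for low counts. Wnt6, Wnt10b and Fzd3 reached its level, which is set on CPM before TMM scaling, in no library at 0 days and passed through the operated groups, so a difference from 0 days was favoured by their selection. Wnt6 reached that level in no library at 10 days either and passed through the groups of 30 and 60 days. Its rises from 10 days were thus favoured in the same way. The 13 sparse members were Wnt2b (3 to 17 fragments), Wnt3 (0 to 20), Wnt9b (2 to 15), Wnt10a (1 to 14) and Fzd5 (1 to 14) and 8 genes with fewer. Wnt1, Wnt7b and Wnt8b had at most 4 fragments in a library, Wnt3a, Wnt7a, Wnt8a and Dkk1 at most 1, and Fzd8 was listed at 0 in all 16 libraries. Col1a2, a collagen gene that fibroblasts express strongly, was also listed at 0 throughout, so a 0 in this table may be a failed estimate and need not mean low expression. Wnt2b alone of these was tested, and it was called in none of the 6 comparisons.

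At 10 days 14 of the 23 members were called changed against 0 days (60.9%), 8 higher and 6 lower, where 62.7% of all genes tested were called (33.3% higher, 29.4% lower). At 30 days 16 were called (69.6%), 9 higher and 7 lower, against 64.6% of all genes (33.7% and 30.9%). At 60 days 14 were called (60.9%), 8 higher and 6 lower, against 59.0% (29.9% and 29.1%). These shares are near those of all genes and are no result about the families as such. The members differed from each other in direction and time. Every one of the 23 was called at 1 time or more. Wnt10b, Fzd1, Sfrp1 and Sfrp2 were called higher at all 3 times, and Wnt16 and Fzd4 lower at all 3 times. The median log2 fold change of the 23 was -0.079, 0.25 and 0.38, beside 0.061, 0.046 and 0.040 for all genes. The 4 libraries of a time and those of 0 days did not overlap for 12, 17 and 12 members at 10, 30 and 60 days, and for 59.0%, 60.2% and 50.0% of all genes. With library totals the split of the calls became 13 higher and 4 lower at 10 days, 14 higher and 5 lower at 30 days and 12 higher and 5 lower at 60 days.

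**Figure D1:**
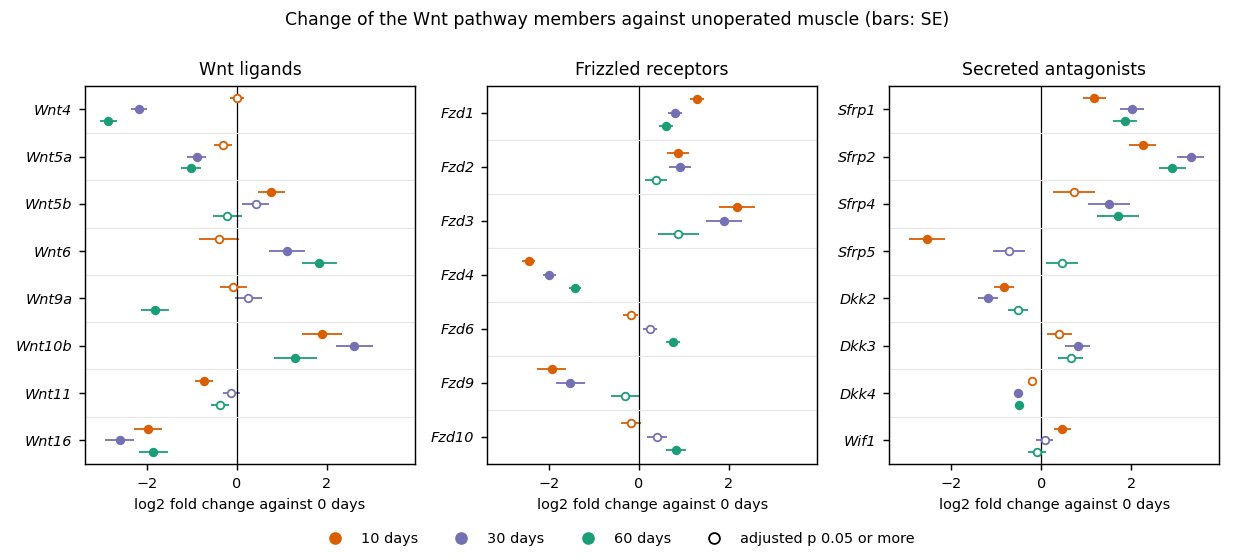
Log2 fold change against 0 days (horizontal axis, bars are SE) of the 23 described members at 10, 30 and 60 days, with open circles where the adjusted p was 0.05 or more. Wnt4, Wnt9a, Wnt16 and Fzd4 lie far to the left at 60 days, and Sfrp1, Sfrp2 and Sfrp4 to the right.

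Among the ligands, Wnt4 and Wnt9a fell late, Wnt16 fell early and stayed low, and Wnt10b and Wnt6 rose from very low levels. Wnt4, a ligand that acts in kidney and reproductive tract development and at the neuromuscular junction, was at 20.5, 15.8, 17.4 and 19.1 CPM in unoperated muscle, 18.0, 16.4, 21.2 and 16.9 after 10 days, 3.86, 4.25, 4.48 and 3.46 after 30 days and 3.92, 1.85, 1.99 and 2.18 after 60 days. The 10-day libraries overlapped with those of 0 days, and all 8 libraries at 30 and 60 days lay below both groups. Its log2 fold change was -0.0041 ± 0.16 (adjusted p 0.985) at 10 days, not called, then -2.18 ± 0.17 (adjusted p 2.78e-08) at 30 days and -2.85 ± 0.19 (adjusted p 9.80e-09) at 60 days, or 4.52-fold and 7.23-fold lower. With library totals the 10-day value became 0.66 and was called higher (adjusted p 0.00120), while the later falls were called under every alternative run. Of 7 muscle fibre markers, 6 were called lower and 1 higher at 10 days. Relative to their geometric mean, the log2 ratio of Wnt4 was -10.13 ± 0.15 (SD, n = 4) at 0 days and -8.83 ± 0.20, -11.63 ± 0.18 and -12.29 ± 0.49 later. In this ratio the 10-day libraries lay above those of 0 days and the later ones below, without overlap.

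Wnt9a, a ligand known from joint formation, was at 34.5, 31.5, 38.4 and 30.9 CPM in unoperated muscle, 20.7, 50.7, 27.4 and 29.4 after 10 days, 65.9, 46.0, 23.7 and 25.5 after 30 days and 10.9, 10.3, 9.18 and 8.09 after 60 days. Levels spread widely at 10 and 30 days, where the libraries lay on both sides of the 0-day values, and all 4 libraries at 60 days lay below all 12 others. The 10-day and 30-day log2 values of -0.079 ± 0.29 (adjusted p 0.828) and 0.25 ± 0.29 (adjusted p 0.461) were not called, although library totals gave 0.77 at 30 days (adjusted p 0.0339). At 60 days Wnt9a was 3.52-fold lower, at -1.81 ± 0.32 (adjusted p 0.000172). Its log2 ratio to the muscle fibre markers was -9.23 ± 0.16 (SD, n = 4) at 0 days and -8.08 ± 0.53, -8.43 ± 0.88 and -10.28 ± 0.18 later. It lay above 0 days without overlap at 10 days, overlapped at 30 days and lay below at 60 days.

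Wnt16, a ligand best known for its role in cortical bone, was at 10.4, 9.10, 6.78 and 9.58 CPM in unoperated muscle, 3.74, 1.84, 1.42 and 2.03 after 10 days, 0.673, 1.76, 2.00 and 1.41 after 30 days and 2.86, 3.25, 1.64 and 2.13 after 60 days. No library of an operated group reached the lowest library of 0 days. The log2 fold changes were -1.98 ± 0.31 (adjusted p 3.11e-05), -2.61 ± 0.32 (adjusted p 3.44e-06) and -1.85 ± 0.31 (adjusted p 0.000111) at 10, 30 and 60 days. Wnt5a, the prototype of the ligands that act without beta-catenin, was at 3.77, 4.03, 3.48 and 4.02 CPM in unoperated muscle, 3.48, 3.42, 3.23 and 2.18 after 10 days, 1.88, 2.40, 1.96 and 1.97 after 30 days and 1.11, 1.79, 1.99 and 2.67 after 60 days. It was called at 30 days (-0.89 ± 0.21, adjusted p 0.00151) and 60 days (-1.02 ± 0.22, adjusted p 0.000882), where the libraries lay below those of 0 days, but not at 10 days (-0.31 ± 0.21, adjusted p 0.193). The 30-day call was lost with library totals (-0.40, adjusted p 0.114).

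Wnt10b, a ligand known to keep preadipocytes from becoming fat cells, was counted with 4, 4, 6 and 4 fragments in unoperated muscle, 23, 17, 23 and 36 after 10 days, 58, 44, 35 and 15 after 30 days and 13, 5, 7 and 16 after 60 days. These correspond to 0.225, 0.147, 0.268 and 0.192 CPM in unoperated muscle, 0.667, 0.559, 0.758 and 1.11 after 10 days, 2.05, 1.04, 1.40 and 0.603 after 30 days and 0.599, 0.280, 0.409 and 0.711 after 60 days. All 12 operated libraries lay above those of 0 days, with the highest at 30 days. Its log2 fold changes were 1.89 ± 0.44 (adjusted p 0.00122), 2.61 ± 0.42 (adjusted p 5.02e-05) and 1.30 ± 0.48 (adjusted p 0.0288). The 60-day call rests on few fragments: it was lost when replicate 2 or 4 of 0 days or replicate 1 or 4 of 60 days was left out (1.10 to 1.28, adjusted p up to 0.0942) and with limma-voom (1.19, adjusted p 0.0600). Wnt6, which like Wnt10b restrains fat cell formation in culture, had 2, 5, 7 and 8 fragments in unoperated muscle, 7, 4, 7 and 6 after 10 days, 15, 21, 15 and 14 after 30 days and 8, 18, 15 and 30 after 60 days. The scaled levels were 0.112, 0.183, 0.312 and 0.383 CPM in unoperated muscle, 0.203, 0.131, 0.231 and 0.184 after 10 days, 0.531, 0.499, 0.600 and 0.563 after 30 days and 0.369, 1.01, 0.877 and 1.33 after 60 days. The 10-day value of -0.40 ± 0.45 (adjusted p 0.458) missed the threshold, and Wnt6 was higher at 30 days (1.11 ± 0.40, adjusted p 0.0216) and 60 days (1.83 ± 0.39, adjusted p 0.000812). The 30-day libraries lay above those of 0 days, and at 60 days replicate 1 lay within the 0-day range. Without replicate 1 or 2 of 0 days the 30-day call was lost (0.92 and 0.98).

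The remaining ligands moved by less than 2-fold. Wnt11, a ligand of convergent extension movements, averaged 8.43 ± 0.736 CPM (SD, n = 4) at 0 days and 5.07 ± 1.08 at 10 days, where it was lower (-0.73 ± 0.20, adjusted p 0.00365), a call lost with library totals (-0.074). At 30 and 60 days its values of -0.12 ± 0.19 (adjusted p 0.588) and -0.37 ± 0.20 (adjusted p 0.113) were not called, and the second passed without replicate 3 of 60 days (-0.53). Wnt5b, the closest relative of Wnt5a, averaged 1.16 ± 0.501 CPM at 0 days and 2.00 ± 0.609 at 10 days, with overlapping groups. It was called higher (0.76 ± 0.30, adjusted p 0.0343), and the call was lost without replicate 1 or 3 of 0 days or replicate 4 of 10 days (0.53 to 0.67), in a fit of these 2 groups alone and with the title letter as a covariate. Its later values of 0.42 ± 0.30 (adjusted p 0.240) and -0.22 ± 0.33 (adjusted p 0.587) were not called, though library totals gave 0.91 at 30 days (adjusted p 0.0135).

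**Figure D2:**
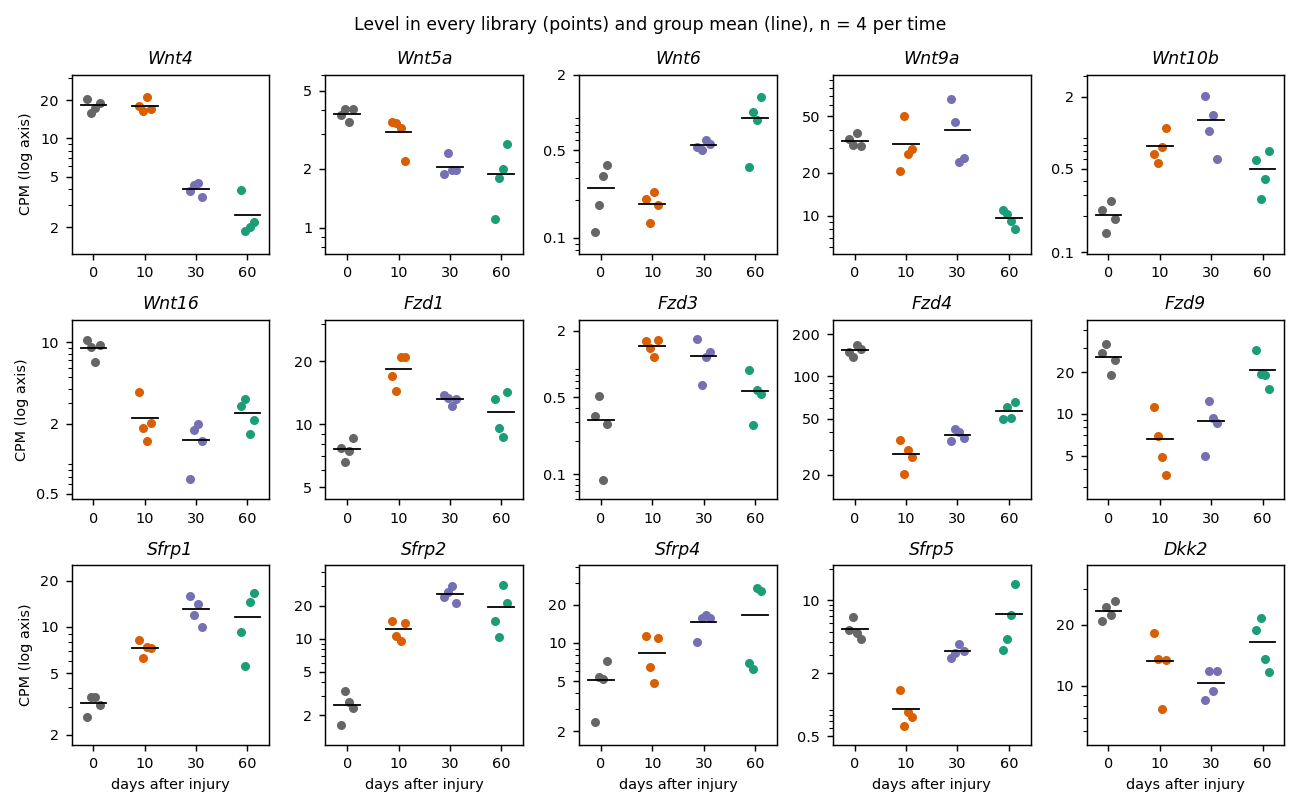
Level in CPM (vertical log axis, its own range in each panel) of the 15 members called with at least a 2-fold change against 0 days, by days after injury; each point is a library and each line the mean of 4. Wnt4 drops between 10 and 30 days and Wnt9a between 30 and 60 days, while Fzd4 drops by 10 days and then climbs.

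Fzd4 and Wnt16, which were lower at all 3 times, Wnt9a, which fell last, and Sfrp2, which rose most, are shown with the 250 bases before their annotated starts, so that the region in front of each gene can be read beside its course. RefSeq sequences of assembly GRCr8 were used, which is not the build of the counts, and 25 of the 36 members had an entry. All 4 are on the plus strand and are written 5′ to 3′. They lie at chr1:152692257-152692506 for Fzd4, chr4:51786478-51786727 for Wnt16, chr10:44593441-44593690 for Wnt9a and chr2:171387286-171387535 for Sfrp2. Capitals mark matches, on either strand, to 4 motifs. The motif CCAAT is a common element of promoters, and TATAAA is the TATA box. The motif CAGCTG is an E-box that myogenic factors bind, and CTTTGA is the core of Tcf and Lef sites.
Fzd4: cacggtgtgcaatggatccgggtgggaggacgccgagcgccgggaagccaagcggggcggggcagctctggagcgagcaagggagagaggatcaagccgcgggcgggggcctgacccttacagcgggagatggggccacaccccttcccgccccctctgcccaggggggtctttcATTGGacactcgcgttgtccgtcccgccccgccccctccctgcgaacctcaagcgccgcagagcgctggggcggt
Wnt16: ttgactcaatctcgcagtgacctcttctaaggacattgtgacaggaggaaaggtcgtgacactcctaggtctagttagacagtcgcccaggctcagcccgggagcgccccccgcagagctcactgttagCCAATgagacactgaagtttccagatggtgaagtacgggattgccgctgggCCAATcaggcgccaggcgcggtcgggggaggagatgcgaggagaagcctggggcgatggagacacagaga
Wnt9a: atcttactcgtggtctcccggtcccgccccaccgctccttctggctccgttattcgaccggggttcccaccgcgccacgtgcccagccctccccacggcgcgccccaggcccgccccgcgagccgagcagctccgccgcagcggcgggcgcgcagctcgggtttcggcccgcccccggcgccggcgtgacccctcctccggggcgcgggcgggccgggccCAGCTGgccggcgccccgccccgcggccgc
Sfrp2: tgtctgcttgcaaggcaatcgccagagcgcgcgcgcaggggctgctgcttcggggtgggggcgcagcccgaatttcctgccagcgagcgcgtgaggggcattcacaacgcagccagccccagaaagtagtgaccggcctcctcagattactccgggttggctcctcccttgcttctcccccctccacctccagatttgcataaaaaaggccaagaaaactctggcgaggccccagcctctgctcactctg
Wnt16 held CCAAT at 2 places, Fzd4 held it once on the minus strand (written ATTGG), Wnt9a held CAGCTG once, and no searched motif was found in the Sfrp2 window. Of 33469 RefSeq windows of this length, 34.0% held CCAAT, 12.9% TATAAA, 12% CAGCTG and 13.9% CTTTGA. Among the 25 member windows the counts were 9, 1, 2 and 2. The motifs do not overlap one another in these 4 windows, and G and C made up 71.6%, 58.8%, 81.2% and 62.4% of the bases of Fzd4, Wnt16, Wnt9a and Sfrp2.

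The Frizzled receptors split into 2 that fell and 5 that were called higher at 1 time or more. Fzd4, which also binds the non-Wnt ligand norrin and is known from blood vessel growth in the retina, was at 150.1, 138, 168 and 157 CPM in unoperated muscle, 35.4, 20.1, 29.9 and 26.6 after 10 days, 35.0, 42.0, 40.2 and 36.7 after 30 days and 50.2, 60.5, 51.0 and 65.6 after 60 days. Every operated library lay below every library of 0 days, and the 3 operated groups were ordered by time without overlap except that the highest library of 10 days exceeded the lowest of 30 days. Fzd4 was 5.46-fold lower at 10 days, at -2.45 ± 0.14 (adjusted p 9.03e-10), 3.98-fold lower at 30 days (-1.99 ± 0.14, adjusted p 7.28e-09) and 2.69-fold lower at 60 days (-1.43 ± 0.14, adjusted p 3.59e-07). It was higher at 60 than at 10 days by 1.02 ± 0.14 (adjusted p 9.02e-06).

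Endothelial markers moved with Fzd4 in part. Their sum over 7 genes, none of them listed at 0, was 342 to 398 CPM in unoperated muscle, 188 to 283 after 10 days, 284 to 319 after 30 days and 305 to 467 after 60 days. Of the 7, 7 were called lower at 10 days, 3 at 30 days and 1 at 60 days, when 1 was higher. The log2 ratio of Fzd4 to the geometric mean of these markers in the same library, which no scaling factor enters, was 1.55 ± 0.18 (SD, n = 4) in unoperated muscle and -0.21 ± 0.17, -0.094 ± 0.076 and 0.039 ± 0.16 in the later groups in order of time. All 12 operated libraries, at -0.36 to 0.25, lay below the 4 of 0 days, at 1.31 to 1.73, so Fzd4 was also lower relative to these endothelial genes.

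Fzd9, a receptor present at the neuromuscular junction, fell and was higher again at 60 days. It was at 27.6, 31.7, 19.1 and 24.3 CPM in unoperated muscle, 11.1, 6.90, 4.88 and 3.66 after 10 days, 4.96, 12.5, 9.40 and 8.65 after 30 days and 29.1, 19.5, 18.9 and 15.2 after 60 days. The libraries of 10 and 30 days lay below those of 0 days, whereas those of 60 days overlapped with them. The log2 fold changes were -1.94 ± 0.32 (adjusted p 8.10e-05), -1.52 ± 0.32 (adjusted p 0.000636) and -0.31 ± 0.31 (adjusted p 0.405), the last not called. Fzd9 was higher at 60 than at 10 days by 1.64 ± 0.32 (adjusted p 0.000432) and than at 30 days by 1.21 ± 0.32 (adjusted p 0.0132).

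Fzd1, a receptor of beta-catenin signalling, rose at once and then declined, with 7.65, 6.57, 7.45 and 8.57 CPM in unoperated muscle, 17.1, 14.4, 21.0 and 21.0 after 10 days, 13.9, 13.3, 12.2 and 13.2 after 30 days and 13.2, 9.59, 8.71 and 14.2 after 60 days. All operated libraries were above those of 0 days. It was 2.43-fold higher at 10 days, at 1.28 ± 0.16 (adjusted p 2.14e-06), with 0.80 ± 0.16 (adjusted p 0.000297) and 0.60 ± 0.16 (adjusted p 0.00373) at 30 and 60 days, and was lower at 60 than at 10 days (-0.68 ± 0.15, adjusted p 0.00105). Set against the geometric mean of 6 fibroblast markers, of which 4 were called higher at 10 days and all 6 at 30 and 60 days, the log2 ratio of Fzd1 was -1.89 ± 0.45 (SD, n = 4) at 0 days and -1.93 ± 0.42, -2.77 ± 0.30 and -3.02 ± 0.55 later. In this ratio Fzd1 overlapped with 0 days at 10 and 60 days and lay lower without overlap at 30 days. Fzd3, a receptor that guides growing axons, was at 0.337, 0.514, 0.0892 and 0.287 CPM in unoperated muscle, 1.60, 1.38, 1.15 and 1.63 after 10 days, 1.67, 0.641, 1.16 and 1.29 after 30 days and 0.876, 0.280, 0.585 and 0.533 after 60 days, counted from 6, 14, 2 and 6 fragments at 0 days. It was higher at 10 days (2.19 ± 0.40, adjusted p 0.000155) and 30 days (1.89 ± 0.41, adjusted p 0.000719) with no overlap with 0 days. At 60 days, when the groups overlapped, 0.87 ± 0.46 (adjusted p 0.111) was not called, and it passed without replicate 2 of 0 days (1.31) and with library totals (1.26).

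The other receptors changed by less than 2-fold against 0 days. Fzd2, close in sequence to Fzd1, was higher at 10 days (0.86 ± 0.24, adjusted p 0.00458) and 30 days (0.91 ± 0.24, adjusted p 0.00330), and its 60-day value of 0.38 ± 0.25 (adjusted p 0.196) was called without replicate 2 of 0 days (0.62) and with library totals (0.80). Fzd6, a receptor of tissue polarity, and Fzd10 were instead called at 60 days alone, at 0.75 ± 0.16 (adjusted p 0.000663) and 0.83 ± 0.22 (adjusted p 0.00449). Fzd6 averaged 8.06 ± 0.422 CPM (SD, n = 4) at 0 days and 13.6 ± 2.60 at 60 days, and Fzd10 3.65 ± 0.910 and 6.49 ± 1.67. At 10 days Fzd6 stood at -0.19 ± 0.16 (adjusted p 0.305), a value that turned to 0.47 and was called higher with library totals (adjusted p 0.0153), as was its 30-day value (0.24 against 0.72). Fzd10 at 30 days (0.40 ± 0.22, adjusted p 0.123) passed without replicate 2 of 0 days (0.57), with upper-quartile factors (0.52) and with library totals (0.89). Between 60 and 10 days the difference itself was called for both, at 0.94 ± 0.16 (adjusted p 6.74e-05) and 1.01 ± 0.22 (adjusted p 0.000825).

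Of the secreted frizzled-related antagonists, Sfrp2 gave the largest rise of all 23 members, Sfrp1 and Sfrp4 rose with it, and Sfrp5 fell at first. Sfrp2, a frizzled-related protein made by fibroblasts, was at 1.63, 3.34, 2.68 and 2.35 CPM in unoperated muscle, 14.5, 10.5, 9.59 and 13.8 after 10 days, 24.0, 26.6, 30.1 and 20.9 after 30 days and 14.6, 10.3, 30.9 and 21.3 after 60 days. All 12 operated libraries lay above the 4 of 0 days, with 30 days highest on average. It was 4.76-fold higher at 10 days (2.25 ± 0.30, adjusted p 1.01e-05), 9.98-fold at 30 days (3.32 ± 0.31, adjusted p 2.31e-07) and 7.55-fold at 60 days (2.92 ± 0.31, adjusted p 1.43e-06). The 30-day level exceeded that of 10 days by 1.07 ± 0.26 (adjusted p 0.00365).

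Sfrp1, its near relative, was at 2.59, 3.52, 3.52 and 3.11 CPM in unoperated muscle, 8.18, 6.31, 7.38 and 7.25 after 10 days, 15.9, 12, 14.1 and 10.0 after 30 days and 9.31, 5.61, 14.6 and 16.7 after 60 days. No operated library fell into the range of 0 days, and 30 days was again highest on average. The log2 fold changes were 1.18 ± 0.26 (adjusted p 0.00100), 2.02 ± 0.26 (adjusted p 7.07e-06) and 1.85 ± 0.27 (adjusted p 2.54e-05). Sfrp4, known from bone and connective tissue, was at 2.36, 5.43, 5.22 and 7.23 CPM in unoperated muscle, 11.4, 6.41, 4.81 and 11.0 after 10 days, 10.2, 15.9, 16.6 and 15.8 after 30 days and 6.92, 6.28, 27.4 and 26.0 after 60 days. The 10-day value of 0.72 ± 0.47 (adjusted p 0.190) missed the threshold, though library totals gave 1.38 and a call. Sfrp4 was higher at 30 days (1.52 ± 0.47, adjusted p 0.00983) and 60 days (1.70 ± 0.47, adjusted p 0.00578). At 60 days replicates 3 and 4 stood far above replicates 1 and 2, which lay within the range of 0 days. The same replicates 3 and 4 held the higher levels of Sfrp1, Sfrp2 and Sfrp5 at 60 days.

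Markers of fibroblasts and fibro-adipogenic progenitors moved with these genes. Of 8 such markers 6 were tested, since Col1a2 and Cd34 were listed at 0 in all 16 libraries. Among the 6, 4 were called higher at 10 days and 6 at 30 and 60 days, and their sum was 321 to 579.9 CPM in unoperated muscle, 622 to 1669 after 10 days, 990.4 to 1425 after 30 days and 887 to 1837 after 60 days. At 60 days the sum was 1016 and 887 CPM in replicates 1 and 2 and 1433 and 1837 in replicates 3 and 4. Set against the geometric mean of the 6 markers in the same library, the log2 ratio of Sfrp2 was -3.53 ± 0.15 (SD, n = 4) at 0 days and -2.53 ± 0.29, -1.83 ± 0.15 and -2.36 ± 0.39 at 10, 30 and 60 days. Sfrp2 was thus higher relative to these markers too, in all 12 operated libraries. The ratio of Sfrp1 was -3.14 ± 0.16 at 0 days and -3.25 ± 0.36, -2.81 ± 0.37 and -3.09 ± 0.24 later, and that of Sfrp4 was -2.57 ± 0.59 and -3.13 ± 0.37, -2.65 ± 0.28 and -2.77 ± 0.68. For Sfrp1 and Sfrp4 each operated group overlapped with 0 days in this ratio.

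**Figure D3:**
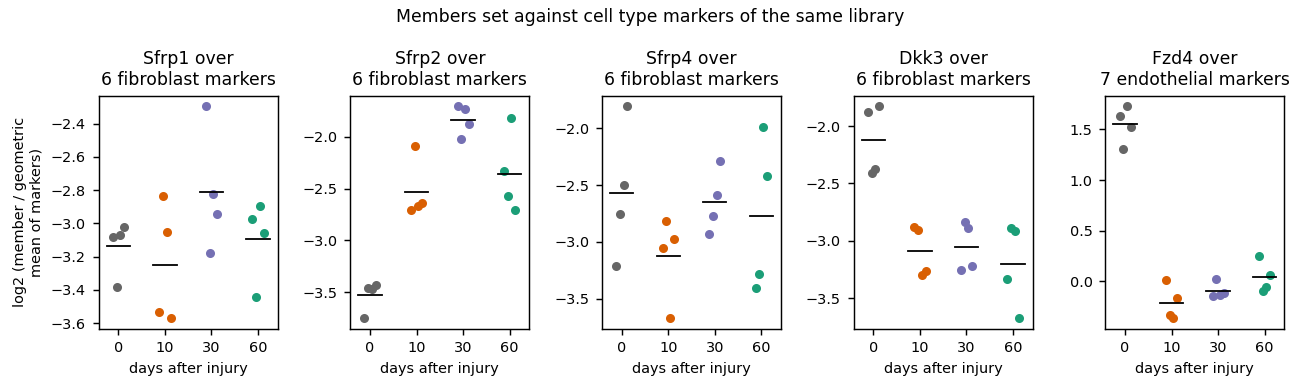
Log2 ratio of a member to the geometric mean of cell type markers in the same library (vertical axis, its own range in each panel) by days after injury; points are libraries and lines means of 4. Sfrp2 lies above and Dkk3 and Fzd4 below their 0-day values in all 12 operated libraries, whereas Sfrp1 and Sfrp4 overlap with 0 days.

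Sfrp5, an antagonist released by fat tissue, was the member of its family that fell. It was at 5.23, 6.97, 4.86 and 4.22 CPM in unoperated muscle, 1.39, 0.624, 0.857 and 0.768 after 10 days, 2.80, 3.11, 3.84 and 3.30 after 30 days and 3.37, 4.26, 7.31 and 14.4 after 60 days. The 10-day libraries lay below all others, and those of 60 days spread from below the 0-day range to above it. Sfrp5 was 5.80-fold lower at 10 days, at -2.54 ± 0.40 (adjusted p 3.89e-05). The later values of -0.71 ± 0.36 (adjusted p 0.0906) and 0.46 ± 0.35 (adjusted p 0.267) were not called, although the 30-day libraries lay below those of 0 days. The call at 30 days was made without replicate 1 or 4 of 60 days (-0.72 and -0.71), in a fit of the 2 groups alone (-0.72) and with the title letter as a covariate (-0.91). With library totals the 60-day value was called higher (0.89, adjusted p 0.0377). Between 10 and 60 days it rose by 3.00 ± 0.40 (adjusted p 8.78e-06). The summed level of 6 adipocyte markers, none at 0 throughout, was 56.9 to 86.3 CPM in unoperated muscle, 28.5 to 48.3 after 10 days, 29.9 to 57.4 after 30 days and 99.1 to 176 after 60 days. Of the 6, 1 was called lower at 10 days and 5 higher at 60 days. Relative to the geometric mean of these markers Sfrp5 stood at 0.11 ± 0.84 (SD, n = 4) on the log2 scale at 0 days and at -1.86 ± 0.49, -0.094 ± 0.58 and -1.28 ± 0.57 later. This ratio did not overlap with 0 days at 10 days (-2.50 to -1.32 against -0.85 to 1.20) and overlapped at 30 and 60 days. At 60 days its mean was below that of 0 days, whereas the fitted fold change was above 0.

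Of the Dickkopf genes, Dkk2 fell at 10 and 30 days and Dkk4 at 30 and 60 days, and Dkk3 rose at 30 days. Dkk2, which binds Lrp5 and Lrp6, was at 20.9, 24.5, 22.4 and 26.0 CPM in unoperated muscle, 18.3, 13.5, 7.74 and 13.4 after 10 days, 8.54, 11.8, 9.40 and 11.8 after 30 days and 18.8, 21.5, 13.6 and 11.7 after 60 days. It was lower at 10 days (-0.83 ± 0.22, adjusted p 0.00376) and 30 days (-1.17 ± 0.22, adjusted p 0.000265), with no overlap with 0 days, and the 10-day call was lost with library totals (-0.17, adjusted p 0.456). At 60 days -0.52 ± 0.22 (adjusted p 0.0543) missed the threshold. It passed with DESeq2 and limma-voom (-0.52 and -0.56), in a fit of the 2 groups alone (-0.49), and without replicate 1 or 3 of 10 days or replicate 2 of 60 days. Dkk4, of the same type, averaged 14.6 ± 0.951 CPM (SD, n = 4) in unoperated muscle, 12.7 ± 1.17 after 10 days, 10.2 ± 0.316 after 30 days and 10.5 ± 1.29 after 60 days. Its small falls at 30 days (-0.52 ± 0.10, adjusted p 0.000217) and 60 days (-0.48 ± 0.10, adjusted p 0.000547) were not called with library totals (-0.023 and -0.079), and its 10-day value of -0.20 ± 0.10 (adjusted p 0.0847) turned to 0.46 and was called higher. The 10-day value was called lower without replicate 2 of 10 days (-0.26), with RLE factors (-0.23) and with DESeq2 (-0.23).

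Dkk3, a divergent member that does not bind Lrp5 or Lrp6, averaged 6.43 ± 0.696 CPM (SD, n = 4) at 0 days and 11.3 ± 3.58 at 30 days, where it was higher (0.81 ± 0.27, adjusted p 0.0166). That call was lost without replicate 2 of 30 days (0.63). At 10 days 0.41 ± 0.28 (adjusted p 0.209) was not called, and library totals gave 1.06 (adjusted p 0.00167). The 60-day value of 0.66 ± 0.28 (adjusted p 0.0515) lay next to the threshold and passed in 8 of the 16 fits that left out 1 library. The libraries were replicates 1, 2 or 3 of 10 days, 1, 2 or 4 of 30 days and 1 or 2 of 60 days (0.66 to 0.79). It also passed with library totals (1.07, adjusted p 0.00233), upper-quartile factors (0.81), DESeq2 (0.66), a filter at a mean of 1 CPM (0.71), no robust estimation (0.66), the title letter as a covariate (0.75) and the 2 groups alone (0.68). Relative to the 6 fibroblast markers Dkk3 was lower in all 12 operated libraries, with a log2 ratio of -2.12 ± 0.31 at 0 days and -3.09 ± 0.23, -3.05 ± 0.22 and -3.20 ± 0.38 later. Wif1, which binds Wnt proteins, was called at 10 days alone (0.47 ± 0.19, adjusted p 0.0417), with overlapping groups. This call was lost without replicate 1, 3 or 4 of 0 days or replicate 1, 2 or 3 of 10 days (0.33 to 0.52), and with RLE factors, DESeq2, limma-voom, every gene with a fragment kept, the title letter as a covariate and a fit of the 2 groups alone.

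The comparisons between operated groups ask how the members moved after the first measurement. From 10 to 30 days 12 of the 23 were called, 8 higher and 4 lower, where 47.3% of all genes were (23.0% higher, 24.3% lower). From 10 to 60 days it was 16, 8 higher and 8 lower, against 61.1% (29.1% higher, 31.9% lower). From 30 to 60 days it was 8, 5 higher and 3 lower, against 22.6% (10.3% higher, 12.4% lower). The libraries of the groups compared did not overlap for 8, 10 and 3 members, and for 43.8%, 51.2% and 20.1% of all genes. With library totals the splits were 4 higher and 6 lower, 6 higher and 9 lower and 3 higher and 4 lower. The calls made under every alternative that tested the gene were 7, 12 and 3. Wnt4 fell from 10 to 30 days by 2.17 on the log2 scale (adjusted p 1.79e-07), with the other such changes being rises of Wnt6 (1.51), Sfrp1 (0.84), Sfrp2 (1.07) and Sfrp5 (1.82) and falls of Fzd1 (-0.48) and Dkk4 (-0.32). Over the whole span from 10 to 60 days Wnt4 (-2.85), Wnt9a (-1.74), Wnt5a (-0.70), Wnt5b (-0.98), Fzd1 (-0.68) and Fzd3 (-1.32) were lower, and Wnt6 (2.23), Fzd4 (1.02), Fzd6 (0.94), Fzd9 (1.64), Fzd10 (1.01) and Sfrp5 (3.00) higher. Both rises of Wnt6 from 10 days were favoured by its selection, as given above. From 30 to 60 days such calls were those of Wnt9a (-2.07 ± 0.32, adjusted p 0.000394), Fzd4 (0.56 ± 0.14, adjusted p 0.00760) and Fzd9 (1.21 ± 0.32, adjusted p 0.0132). The count of 8 was 3 in a fit of these 2 groups alone and 4 without replicate 1 of 30 days or replicate 2 of 60 days.

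Genes that act with the members give the context. Of 82 genes in 8 lists (co-receptors, secretion, R-spondins, other antagonists, cytoplasmic and nuclear components, targets and polarity genes), 71 were found in the table and 62 tested. At 10 days 38 were called, 17 higher and 21 lower, at 30 days 38 (15 and 23) and at 60 days 36 (13 and 23). Taken without direction, these shares were again near those of all genes given above. Lower calls outnumbered higher ones at each time, whereas among all genes slightly more were higher. Their median log2 fold changes were -0.0018, -0.10 and -0.10. Library totals turned the split to 36 higher and 4 lower at 10 days, 28 higher and 12 lower at 30 days and 27 higher and 12 lower at 60 days, and upper-quartile factors gave 17 higher and 19 lower at 60 days.

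Co-receptors went different ways. Lrp5, which pairs with Frizzleds in beta-catenin signalling, averaged 45.9 ± 3.85 CPM (SD, n = 4) at 0 days and 16.6 ± 2.93 at 10 days, and was lower at all 3 times, at -1.46 ± 0.12 (adjusted p 1.69e-08), -1.23 ± 0.12 (adjusted p 1.64e-07) and -0.72 ± 0.11 (adjusted p 5.74e-05). Its partner Lrp6 was higher at 10 days (0.41 ± 0.15, adjusted p 0.0252) and lower at 60 days (-0.44 ± 0.15, adjusted p 0.0205). The first call was lost in 5 and the second in 4 of the 16 fits that left out 1 library (0.31 to 0.39 and -0.41 to -0.28). The second was also lost with library totals (-0.038), upper-quartile factors (-0.30) and a fit of the 2 groups alone (-0.42). Ryk, an atypical Wnt receptor, was lower at all 3 times (-0.94, -1.79 and -1.39), the first not called with library totals (-0.28). Musk, the kinase of the neuromuscular junction that carries a Frizzled-like domain, averaged 2.01 ± 0.786 CPM in unoperated muscle, 18.2 ± 3.33 after 10 days, 18.2 ± 4.38 after 30 days and 3.55 ± 0.720 after 60 days. It was higher at all 3 times, by 3.20 ± 0.24 (adjusted p 1.35e-08), 3.21 ± 0.24 (adjusted p 1.99e-08) and 0.86 ± 0.26 (adjusted p 0.00994). Ror2, the receptor of Wnt5a, was higher at all 3 times (1.18, 1.42 and 1.11) at under 2 CPM on average. The 10-day call was lost without replicate 3 of 0 days or 1 of 10 days (0.92 and 0.95) and the 60-day call in 4 of the 16 such fits. The 60-day call of Ror2 was also lost in a fit of the 2 groups alone (1.13). Ptk7 was higher at 10 days (1.94) and 30 days (1.43), and Ror1 was called at none of the 3 times.

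Among other extracellular genes, Cthrc1, a secreted protein of activated fibroblasts that binds Wnt and Frizzled proteins, averaged 0.370 ± 0.0649 CPM (SD, n = 4) in unoperated muscle, 15.8 ± 8.44 after 10 days, 7.69 ± 3.91 after 30 days and 3.52 ± 2.71 after 60 days. Its log2 fold changes were 5.39 ± 0.69 (adjusted p 6.25e-06), 4.36 ± 0.70 (adjusted p 6.48e-05) and 3.21 ± 0.74 (adjusted p 0.00175), the last not called with limma-voom (2.80, adjusted p 0.0690). Even after TMM scaling, its 0-day mean lay under the filter level of about 0.406 CPM. The 0-day libraries alone thus did not carry Cthrc1 through the filter, and a difference from 0 days was favoured by its selection. Rspo1, an R-spondin that strengthens Wnt signals, was higher at 30 days (0.93) and 60 days (1.26), while Rnf43, a ligase that removes Frizzleds from the surface, was lower at both (-1.42 and -1.46). Kremen1, a receptor for Dickkopf proteins, was lower at 30 days (-0.66, not called with library totals, -0.17) and 60 days (-1.21). Sostdc1, an antagonist at under 1 CPM, was lower at 10 days (-1.34), a call lost in 5 of the 16 fits without 1 library and with 3 other settings. Frzb, the frizzled-related gene that the naming rule leaves out, was not called at any time (-0.35, 0.032 and 0.31), although library totals gave 0.73 at 60 days (adjusted p 0.0188).

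Inside the cell, Axin1, a scaffold of the complex that destroys beta-catenin, was lower at all 3 times (-0.74, -1.28 and -1.15). With library totals its 10-day value was -0.080 and missed the threshold. Csnk1e, a kinase of the pathway, was lower at 30 and 60 days (-1.55 and -1.02), and so was Bcl9l, a partner of beta-catenin (-1.06 and -0.91), whose 10-day fall (-0.57) turned to 0.087 with library totals. Axin2, the most widely used target of beta-catenin, averaged 6.80 ± 1.33 CPM (SD, n = 4) in unoperated muscle, 9.83 ± 2.07 after 10 days, 6.59 ± 1.27 after 30 days and 4.88 ± 0.771 after 60 days. It was higher at 10 days (0.53 ± 0.18, adjusted p 0.0173), not called at 30 days (-0.039 ± 0.18, adjusted p 0.865; 0.45 and called with library totals) and lower at 60 days (-0.47 ± 0.19, adjusted p 0.0425). The 10-day call was lost without replicate 3 of 0 days or 1 of 10 days and the 60-day call in 7 of the 16 fits without 1 library and with library totals (-0.063) or upper-quartile factors (-0.33). The 60-day call of Axin2 was also lost with limma-voom (-0.45), a filter at a mean of 1 CPM (-0.43) and a fit of the 2 groups alone (-0.45). Lef1, another target and a nuclear partner, was too sparse to be tested, with means of 0.300, 0.214, 0.0827 and 0.10 CPM. Of 7 targets tested 3 were higher and 2 lower at 10 days, 2 and 1 at 30 days, and 2 and 1 at 60 days. Myc, which many other signals also control, was higher at all 3 times (3.13, 2.64 and 1.54), Nkd1 at 30 and 60 days (1.04 and 0.90) and Wisp1 at 10 days (1.59). Wisp1 failed the count filter in the fits of 0 days with 30 or 60 days alone. The 0-day libraries alone thus did not carry Wisp1 through the filter, and its call at 10 days was favoured by its selection. Tnfrsf19 was lower at 10 and 30 days (-0.91 and -1.09), while library totals gave -0.25 and -0.60 and no call. The calls of Wisp1, of Tnfrsf19 at 10 days and of Nkd1 at 60 days were each lost without 1 library. It was replicate 4 of 10 days for Wisp1 (1.25), replicate 2 of 0 days for Tnfrsf19 (-0.67), and replicate 1, 3 or 4 of 0 days or 3 or 4 of 60 days for Nkd1 (0.69 to 0.93). The Nkd1 call was also lost with limma-voom (0.80, adjusted p 0.0851) and without a count filter (0.88, adjusted p 0.0506).

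Polarity and calcium genes also split. Camk2a, a calcium-dependent kinase, was lower at all 3 times (-1.95, -1.77 and -1.54), as were the polarity genes Celsr2 (-1.16, -2.40 and -2.45) and Prickle1 (-1.10, -1.04 and -0.83), while Vangl1 (0.88, 1.12 and 0.89) and Invs (1.02, 1.75 and 1.10) were higher. Of 13 genes tested on this list 4 were higher and 6 lower at 10 days, 3 and 6 at 30 days, and 3 and 4 at 60 days.

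**Figure D4:**
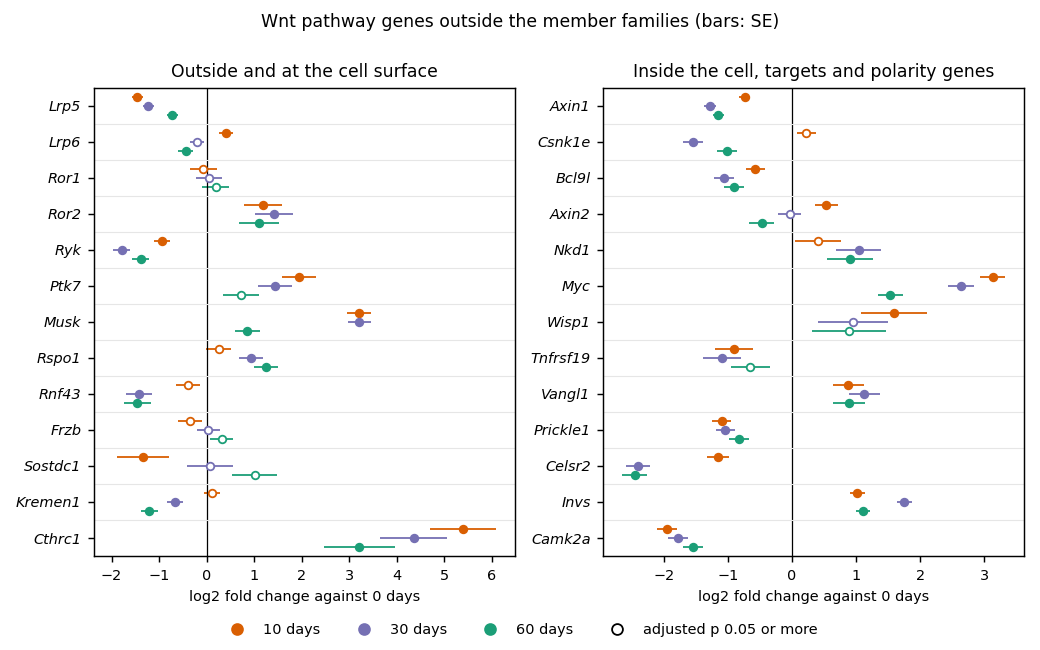
Log2 fold change against 0 days (horizontal axis, bars are SE) of 26 pathway genes outside the member families at 10, 30 and 60 days, with open circles where the adjusted p was 0.05 or more; each panel has its own axis range. Cthrc1, Musk and Myc lie far to the right, and Lrp5, Ryk, Celsr2 and Camk2a to the left.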

How the data were processed

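Polyadenylated RNA of 16 rat supraspinatus samples was sequenced and summarised by the authors as 1 deposited table of expected counts, raw fragments per gene and library that need not be whole. They were rounded before the fits. The submitters' processing notes name bcl2fastq 1.8.4, FastQC, TopHat2 2.0.9, Bowtie2 2.1.0.0, Cufflinks, Cuffdiff 2.1.1 and the build rn5. The annotation, strand setting and filters are not given in the sources used here, so overlapping or near-identical genes may share fragments.

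Groups were taken from the labels. All 16 libraries entered 1 model in edgeR 4.0.16 (R 4.3.3; filterByExpr, which kept genes at an unscaled level of about 0.406 CPM in at least 4 libraries, TMM factors, robust quasi-likelihood test), with Benjamini-Hochberg adjusted p-values over 11658 genes and a threshold of 0.05. The SE was derived from the F statistic. On simulated counts for 10 against 0 days the fit called 148 of 200 genes changed 2-fold and 11 unchanged genes of 11535 tested. The simulation changed far fewer genes than were called in the data, up or down at random, with the spread taken from the fit. It held no shift in the bulk of the genes, so it does not test the choice of scaling factors. Libraries of 1 group were further apart than counting noise (chi-square per gene 13.3 to 102 over 24 pairs), so none was merged.

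The 23 members with a mean of at least 10 fragments were named, with every library printed for those called with an absolute log2 change of at least 1 against 0 days. Pathway genes were named under the same criterion, or as a co-receptor, Axin2, Lef1 or Frzb. The members, gene lists and tests were chosen with earlier results of these data known. Alternatives were RLE, upper-quartile or no scaling factors, DESeq2 1.42.0, limma-voom (limma 3.58.1), other count filters, no robust estimation and only the groups compared. Further fits used the letter ending each title or the replicate number as a term, or left out each library in turn. The letter was L or R, and what it means is not stated. It was unevenly spread over the times, with R more common at 10 and 60 days and L at 30 days. Promoter windows came from RefSeq (GRCr8). Figures were drawn with matplotlib 3.10.9.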

Additional observations from a re-analysis of the deposited data

Results flagged for a closer look

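In 5 of the 92 groups of 4 libraries formed by 23 members and 4 times, 1 library lay further from the rest than Dixon's critical value allows, where chance gives about 1 in 20. Wnt4 at 60 days was at 3.92 CPM in replicate 1, next to 2.18 in the nearest library. Wnt11 at 0 days was at 7.33 CPM in replicate 4, below 8.72 in the nearest. Fzd2 at 0 days was at 3.92 CPM in replicate 2, above 2.40, and without that library the 60-day difference of Fzd2 was called. Sfrp4 at 30 days was at 10.2 CPM in replicate 1, below 15.8. Wif1 at 0 days was at 1.41 CPM in replicate 1, below 2.11, and without that library the 10-day call of Wif1 was lost.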

How the results depend on the processing

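Over the 6 comparisons the 23 members gave 80 calls, of which 56 were made under every alternative that tested the gene. Against 0 days, library totals turned the sign of Wnt4 (0.66), Fzd6 (0.47), Dkk4 (0.46) and Bcl9l (0.087) at 10 days. They did so for Axin2 (0.45) at 30 days. Of these changes only that of Bcl9l was called with TMM factors, and it was not called with library totals. Among the named genes no call thus became a call in the opposite direction. These totals also raise the median of all genes, as given above. Leaving out 1 library moved the members called against 0 days to 12 to 14, 15 to 17 and 13 to 16 at 10, 30 and 60 days, those from 10 to 30 days to 8 to 13, from 10 to 60 days to 12 to 18 and from 30 to 60 days to 4 to 9. The last count was 3 in a fit of those groups alone, a fit with fewer samples. For the pathway genes the same fits gave 32 to 40, 34 to 39 and 31 to 39 against 0 days. With a replicate block, the number ending each column name, 14, 17 and 15 members were called at 10, 30 and 60 days against 0 days, 12 and 15 at 30 and 60 against 10 days and 7 at 60 against 30 days, and 37, 39 and 35 pathway genes. Among the named genes, the block added against 0 days the calls of Fzd10 at 30 days (0.42, adjusted p 0.0473) and Dkk2 at 60 days (-0.54, adjusted p 0.0352) and removed those of Sostdc1 at 10 days (-1.33, adjusted p 0.0518) and Nkd1 at 60 days (0.90, adjusted p 0.0533). Between operated groups it removed those of Sfrp2 from 10 to 60 days (0.60, adjusted p 0.0781) and Sfrp5 from 30 to 60 days (1.09, adjusted p 0.0558). Same-numbered libraries of different times correlated from -0.24 to 0.22 in their deviations, over 0.1 in 4 of 24 pairs. Of all libraries, 3 correlated best with their own number. Libraries of the same time were not compared in this way, so whether a rat gave more than 1 library was not tested. With the letter ending each title as a term, Wnt11, Fzd6 and Fzd10 lost their calls from 10 to 30 days. Wnt16 was then called lower from 10 to 30 days (-0.90) and higher from 30 to 60 days (1.10). The precision of Wnt6, Wnt10b and Fzd3 is limited by depth, since 0-day libraries held few fragments of each, and 4 libraries a group limit every comparison.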
